A study of Saccharomyces cerevisiae and Saccharomyces paradoxus and Saccharomyces cerevisiae x Saccharomyces paradoxus with 12 samples.

Results

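The genes described here encode the proteins of the large (60S) subunit of the cytosolic ribosome of budding yeast. They were chosen by name, as genes called RPL with a number and an optional A or B for the copy, together with the acidic stalk genes RPP0, RPP1A, RPP1B, RPP2A and RPP2B, and without the mitochondrial MRPL genes. Of the 5226 genes with counts, 68 met this rule, in 46 protein families. The R64 gene table of S. cerevisiae holds 81 such names, and the other 13 (RPL1A, RPL4B, RPL7B, RPL8A, RPL9A, RPL14B, RPL20A, RPL20B, RPL22B, RPL40A, RPL41A, RPL41B and RPL43A) were not analysed here. Both copies of 22 families were measured, 9 more families had 1 measured copy of a pair, 11 genes were single-copy genes and 4 were the RPP1 and RPP2 stalk genes.

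The study sequenced mRNA (RNA-seq) and ribosome-protected mRNA fragments (Ribo-seq) in 3 diploid yeast strains, GSY83 of S. cerevisiae, GSY82 of S. paradoxus and GSY88, the F1 hybrid of both species, to ask how expression and translation differ between the species. All 3 strains grew in YEP+D, a rich glucose medium, at 30 °C to an OD600 between 0.6 and 0.9, and all received cycloheximide, which stalls ribosomes, for 5 minutes before extraction. Each strain and assay gave 2 libraries, 12 in all, each species was represented by 1 strain, and the hybrid libraries were counted separately for the alleles of each species, so that the table had 16 columns. The headings of the parental columns hold the word Mix, which is not explained in the sources used here, and the totals of both species are nearly equal under the same replicate number and assay (7109313 and 7096639 counts in RNA-seq replicate 1), as are those of both alleles; whether the parental libraries were prepared or sequenced together cannot be told from these files. Separate cultures behind the 2 libraries of a group are not mentioned in the labels, and p-values therefore measure the spread between these samples alone, which may be technical.

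The large subunit carries the peptidyl transferase centre, where peptide bonds form, the tunnel through which the new chain leaves, and a flexible stalk that recruits the translational GTPases. Ribosomal protein genes are among the most heavily transcribed genes of growing yeast, are controlled together in response to nutrients through the TOR pathway and the factors Rap1, Fhl1, Ifh1 and Sfp1, and make up a large part of the intron-containing genes of this yeast. Most are kept as A and B copies that date from a whole-genome duplication and encode proteins that are identical or nearly so.

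Depth was 6116133 to 8910405 counts per column, and no member fell below the filter on low counts, so that all 68 were tested. Going by the deposited gene coordinates, 46 of the 68 had an intron within the coding region in each species, and 67 had the same coding length in both, from 156 bases (RPL39) to 1164 bases (RPL3). The exception was RPL7A, with 735 coding bases in 3 exons in S. cerevisiae and 786 bases in 2 exons in S. paradoxus. Copies of a pair share much of their sequence, and reads that match both copies, or both alleles, could not be traced, so values of single copies are less certain than those of single-copy genes or of families with the copies added. In bulk samples such as these, fewer cells and less RNA per cell cannot be told apart. Shares are relative to the total of their column, and CPM and log2 differences to that total after scaling.

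The 68 genes took a smaller share of the mRNA in S. cerevisiae than in S. paradoxus or in either hybrid allele. In S. cerevisiae RNA-seq they held 9.01% and 8.92% of the column total in replicates 1 and 2. The shares were 12.6% and 9.97% in S. paradoxus, 11.8% and 9.66% for the S. cerevisiae allele of the hybrid, and 12.03% and 9.12% for the S. paradoxus allele. Both S. cerevisiae libraries were thus below all 6 others, while the replicates of S. paradoxus and of the hybrid lay farther apart than the S. cerevisiae replicates did.

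In Ribo-seq the shares were 8.12% and 9.16% in S. cerevisiae and 10.9% and 11.2% in S. paradoxus. In the hybrid they were 11.2% and 10.9% for the S. cerevisiae allele and 11.4% and 11.2% for the S. paradoxus allele. Again both S. cerevisiae libraries lay below all others. The 49 measured genes of the small (40S) subunit also had their lowest Ribo-seq shares in both S. cerevisiae libraries. In RNA-seq their S. cerevisiae shares, 7.15% and 7.21%, lay above replicate 2 of both hybrid alleles, 7.14% and 6.78%. The ratio of large to small subunit counts stayed between 1.24 and 1.41 in the 16 columns.

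**Figure D1:**
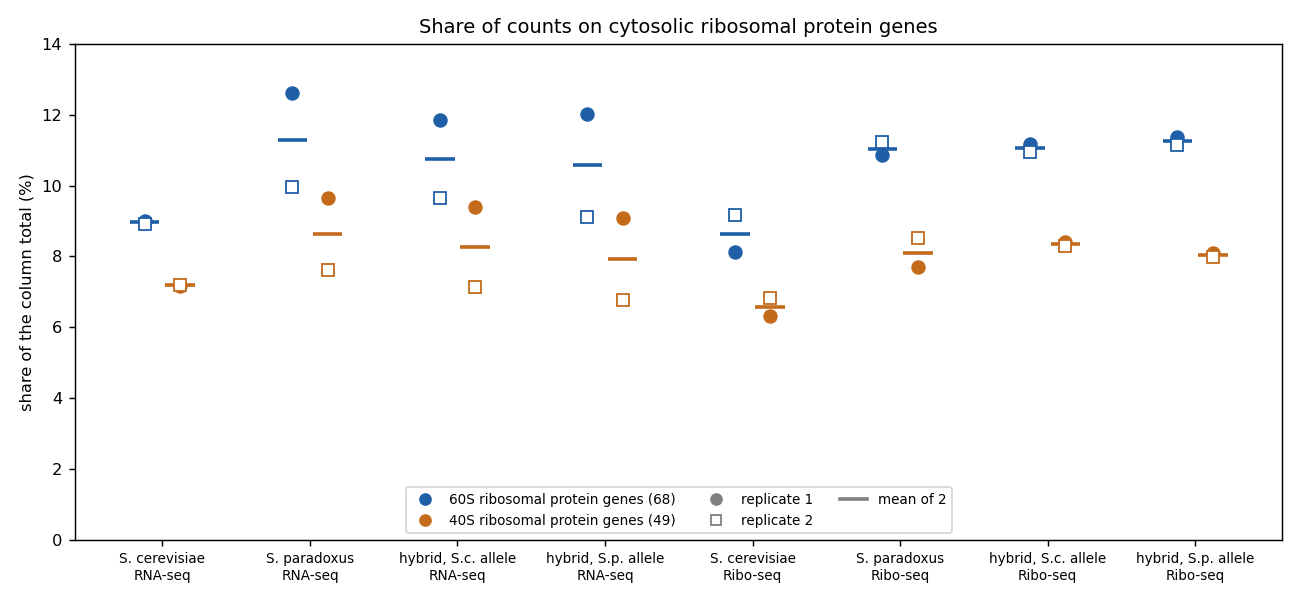
Share of each column total, in percent, on the 68 large subunit genes (blue) and the 49 small subunit genes (orange), with a filled circle for replicate 1, an open square for replicate 2 and a bar for their mean. The large subunit shares of S. cerevisiae RNA-seq, 9.01% and 8.92%, sit below those of S. paradoxus, 12.6% and 9.97%.

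The RNA-seq replicates differed in the level of the whole group. The median difference of the 68 genes, replicate 2 minus replicate 1, was -0.48 on the log2 scale in S. paradoxus, with 66 of 68 lower in replicate 2. It was -0.40 for the S. cerevisiae allele and -0.45 for the S. paradoxus allele of the hybrid, against -0.01 in S. cerevisiae. The 40S genes differed likewise between these replicates, by -0.37, -0.43 and -0.40. In Ribo-seq the S. cerevisiae replicates differed by a median of 0.23, with 9 of 68 genes lower in replicate 2, and the 40S genes by 0.16, while the other Ribo-seq medians lay between -0.07 and -0.00. Changes in counts or values without single libraries are therefore described beside each comparison.

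Levels within the group were compared as counts scaled to library size (CPM) per kilobase of coding sequence. In S. cerevisiae RNA-seq the median member stood at 1661 CPM per kilobase, against 54.8 for all genes, and 66 of the 68 were among the 200 genes with the highest values. RPP0, the protein that anchors the stalk, was highest at 4670.1 ± 123 (SD, n = 2), followed by RPL10, a tRNA-site protein that joins the subunit last, at 4467 ± 169, RPL28 at 4329 ± 56.7, and the stalk genes RPP1B at 3819 ± 299 and RPP2A at 3502 ± 349. By mean ± SD, RPL10 overlapped both RPP0 and RPL28, which did not overlap each other, and RPP1B overlapped RPP2A.

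At the other end stood the weaker copies of pairs. RPL15B had 206 ± 2.73 CPM per kilobase, then RPL35A 696 ± 23.4, RPL31A 735 ± 28.1, RPL23A 837 ± 42.2 and RPL18B 915 ± 7.39. The highest member was 22.7 times the lowest in S. cerevisiae mRNA and 7.90 times in S. paradoxus mRNA, where RPL31A was lowest at 955 ± 375 and RPL15B stood at 1206 ± 339.8. RPP1A led in S. paradoxus with 7548 ± 2730.1, a spread that covers RPP0 at 7419 ± 1333.

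Between the parents, every one of the 68 mRNAs had a lower fitted level in S. cerevisiae, and none was higher. Of them 35 passed the edgeR quasi-likelihood test at a Benjamini-Hochberg adjusted p under 0.05 (called below), all 35 lower in S. cerevisiae, against 21.6% of the 5158 tested genes called lower and 43.5% called in either direction. The median log2 difference, S. cerevisiae minus S. paradoxus, was -0.59, against -0.00 for all genes, whose quartiles were -0.53 and 0.52. For 58 of the 68 both S. cerevisiae libraries lay below both S. paradoxus libraries, against 38.7% of all genes, and for 0 did they lie above, against 39.8%. With the copies of a pair added, 21 of the 46 families were called lower and the median was -0.60. Among the called genes 7 reached a 2-fold difference.

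The size of the group difference depended on the S. paradoxus library. Set against S. paradoxus replicate 1, the median member of the 2 S. cerevisiae libraries differed by -0.77 and -0.80, and set against replicate 2 by -0.32 and -0.35. Fewer members were called without S. paradoxus RNA-seq replicate 1, either S. cerevisiae RNA-seq library or either hybrid Ribo-seq library. Calls over all tested genes fell in the same fits. In each of these fits all called members were lower in S. cerevisiae.

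**Figure D2:**
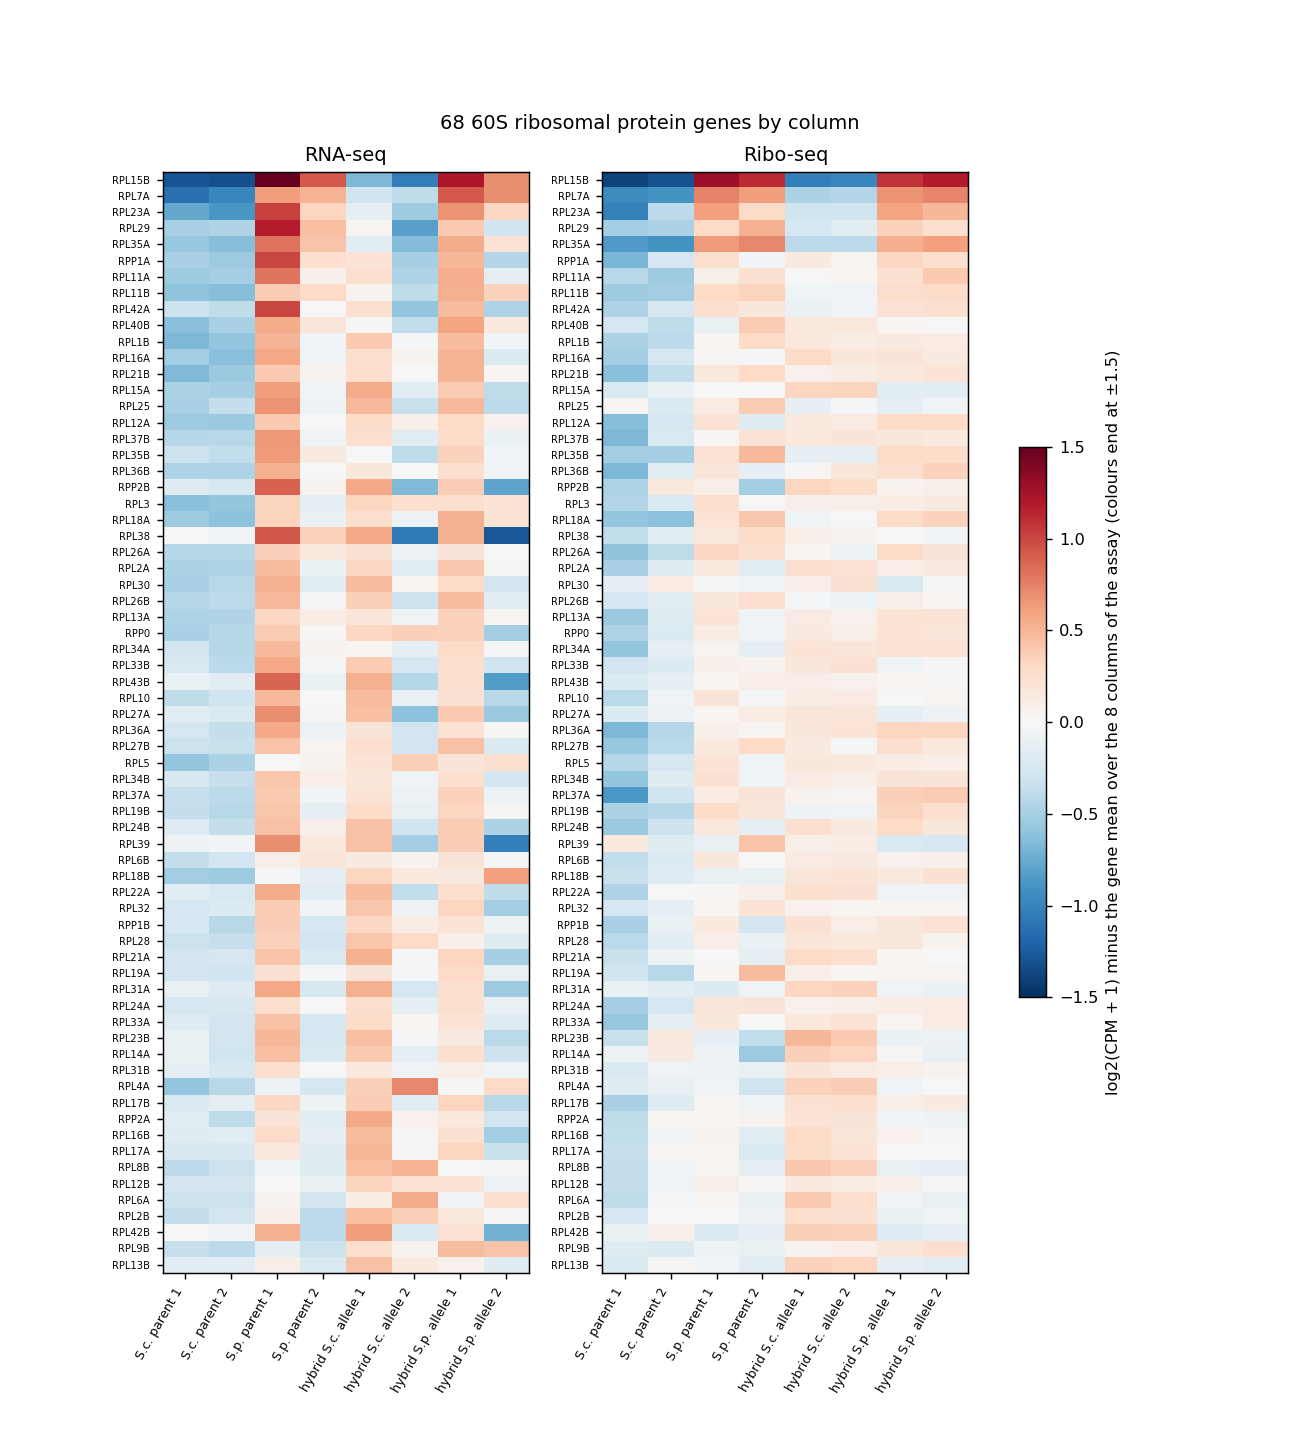
Level of each of the 68 genes in each column, as log2(CPM + 1) minus the gene's mean over the 8 columns of the same assay, with red above and blue below the mean. Genes are ordered by their parental mRNA difference, from RPL15B at -2.55 downwards, and the S. cerevisiae columns are the bluest in both assays.

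Among the 7 measured genes of the GTPase stalk and its base, 3 were called lower in S. cerevisiae mRNA, against 21.6% of all genes. RPP1A, whose product pairs with RPP2 proteins on RPP0, had 1076 and 1037 CPM in the S. cerevisiae replicates and 3042 and 1803 CPM in the S. paradoxus replicates. The groups did not overlap, and the log2 difference was -1.20 ± 0.31, adjusted p = 0.0081. The RPP1A call was lost without S. cerevisiae replicate 2 or S. paradoxus replicate 1 of RNA-seq, and without the latter the value was -0.77. RPP0 had 4304 and 4467 CPM against 7851 and 6081 (-0.67 ± 0.22, adjusted p = 0.0253). RPL12A, one copy of the stalk-base protein, was lower as well (-0.77 ± 0.19, adjusted p = 0.00519), while RPL12B had a difference of -0.22, RPP1B of -0.41, RPP2A of -0.30 and RPP2B of -0.74, none of them called.

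All 3 genes of the 5S ribonucleoprotein, the particle of 5S rRNA with Rpl5 and Rpl11, were called lower in S. cerevisiae, against 21.6% of all genes. RPL5, a single-copy gene, had 2107 and 2270.5 CPM against 3179 and 3289.9, without overlap (-0.56 ± 0.14, adjusted p = 0.00515). RPL11A had 637 and 648 CPM against 1614 and 975 (-1.01 ± 0.27, adjusted p = 0.00946), and RPL11B had 621 and 606 CPM against 1229.5 and 1159.5 (-0.96 ± 0.15, adjusted p = 0.00034). Both copies differed by a similar amount, and with the counts of the copies added the difference was -0.99 ± 0.20, adjusted p = 0.0017.

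Around the peptidyl transferase centre and the tRNA sites, 4 of 8 genes were called lower in S. cerevisiae, against 21.6% of all genes. RPL29, a short single-copy gene that is dispensable for growth (180 coding bases, chromosome VI, 223258 to 223437, minus strand in R64), had 304 and 312 CPM in S. cerevisiae and 972 and 586 CPM in S. paradoxus. Its S. paradoxus libraries differed from each other more than those of S. cerevisiae did, but the groups did not overlap (-1.34 ± 0.29, adjusted p = 0.00278). RPL3, which reaches into the peptidyl transferase centre (chromosome XV, 444686 to 445849, plus strand), had 3787 and 3903 CPM against 7359 and 5319.7 (-0.72 ± 0.16, adjusted p = 0.00289). RPL2A (-0.68) and RPL42A (-0.94) were also called, with adjusted p of 0.024 and 0.0374. Not called were RPL10 (-0.60), RPL28 (-0.40), in which mutations give cycloheximide resistance, RPL2B (-0.17) and RPL42B (-0.17).

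Of the 14 measured genes at the polypeptide exit tunnel and its rim, 5 were called lower, against 21.6% of all genes. They were RPL35A, RPL35B, RPL26A, RPL26B and RPL19B. RPL35A, a rim protein gene with an intron (chromosome IV, 117664 to 118517, plus strand), had 259 and 247 CPM against 680.1 and 520.0, without overlap (-1.25 ± 0.19, adjusted p = 0.000235), and RPL35B had 348 and 337 CPM against 679.5 and 477 (-0.76 ± 0.20, adjusted p = 0.00838). RPL25, where the signal recognition particle docks, had a difference of -0.77 with an adjusted p of 0.0588, and RPL39, a tunnel protein, had -0.51 with 0.295. RPL38 had -0.69 with 0.271. At the bridges to the small subunit RPL19B, already counted with the tunnel, was the only called gene of 4, near the 21.6% of all genes. The single measured gene of the L1 stalk, which guides the outgoing tRNA, was called lower (RPL1B, -0.89 ± 0.21, adjusted p = 0.00468), and so was the measured copy that is made as a ubiquitin fusion (RPL40B, -0.94 ± 0.21, adjusted p = 0.00313).

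The lowest values belonged to a few genes of pairs. RPL15B (chromosome XIII, 509734 to 510348, minus strand), the copy of RPL15 that S. cerevisiae can live without, had 128 and 125 CPM in S. cerevisiae and 889 and 594 CPM in S. paradoxus (-2.55 ± 0.23, adjusted p = 5.68e-06). RPL7A (chromosome VII, 364335 to 365996, minus strand) had 1034 and 1140.2 CPM against 3473 and 3211 (-1.62 ± 0.14, adjusted p = 3.43e-06). RPL23A (chromosome II, 59822 to 60739, minus strand), on the face that binds the anti-association factor Tif6, had 359 and 334 CPM against 1246 and 764 (-1.54 ± 0.26, adjusted p = 0.000495). In each the species did not overlap, while the 2 S. paradoxus libraries of RPL23A lay far apart. RPL7A carries the length difference between the coordinate tables, of 51 bases, and its partner copy was not analysed here. Added to their partners, RPL15 differed by -1.13 ± 0.26, adjusted p = 0.00375, RPL23 by -0.84 ± 0.26, adjusted p = 0.0174, and RPL35 by -0.99 ± 0.19, adjusted p = 0.00117.

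Among the 11 single-copy genes, which have no near-identical partner, 5 were called lower, against 21.6% of all genes, with a median of -0.67. They were RPL29, RPL3, RPP0, RPL5 and RPL30. RPL30, whose protein binds its own transcript and limits its splicing in S. cerevisiae, had 1003 and 1051 CPM against 2036 and 1259.9 (-0.68 ± 0.24, adjusted p = 0.0338). RPL32 had -0.42 and was not called. Without S. paradoxus RNA-seq replicate 1 the value of RPL30 was -0.29 and that of RPL3, still called, -0.47. The calls of RPL30 and RPP0 were lost without either S. cerevisiae RNA-seq library, without S. paradoxus RNA-seq replicate 1 or without either hybrid Ribo-seq library, and that of RPL5 without S. cerevisiae RNA-seq replicate 1. In the 22 complete pairs both copies were called in 8, 1 copy in 10 and neither in 4.

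The 49 genes of the small subunit had 22 called lower, 1 called higher and a median of -0.55, against 21.6% of all genes called lower and 21.9% called higher. Outside the ribosome itself, 12 chaperones and escorts of the large subunit were also compared. Beside the same shares of all genes, 9 of these were called lower in S. cerevisiae mRNA and 0 higher, with a median of -0.96. They included SQT1, the chaperone of Rpl10 (-1.19 ± 0.17, adjusted p = 0.000193), SYO1, which imports Rpl5 with Rpl11 (-1.48 ± 0.35, adjusted p = 0.00476), BCP1, the chaperone of Rpl23 (-1.24 ± 0.22, adjusted p = 0.000794), and ACL4, that of Rpl4 (-0.58 ± 0.20, adjusted p = 0.0347). Of 12 regulators of ribosomal protein genes, 2 were called higher and 5 lower in S. cerevisiae, beside those 21.9% and 21.6%. Those higher were DOT6 (2.09 ± 0.35, adjusted p = 0.000451) and STB3 (0.83 ± 0.21, adjusted p = 0.00631), which encode repressors of ribosome biogenesis and ribosomal protein genes. The lower ones were TOD6, a second repressor of the DOT6 type (-1.67), the coactivator IFH1 (-1.31 ± 0.45, adjusted p = 0.0307), the kinase SCH9 (-1.23), ABF1 (-0.63) and RAP1 (-0.51). These lists describe the mRNA of the regulators and not their activity.

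Ribosome occupancy, the Ribo-seq level, also differed between the parents. Of the 68 genes 19 were called lower in S. cerevisiae and 0 higher, against 15.0% of all genes called lower and 33.0% called in either direction. The median was -0.37, and 61 of the 68 were negative. Set against the 2 S. paradoxus libraries, the median member differed by -0.52 and -0.44 in S. cerevisiae Ribo-seq replicate 1 and by -0.29 and -0.17 in replicate 2. For 51 genes both S. cerevisiae libraries lay below both of S. paradoxus, against 36.9% of all genes, and for 1 they lay above, against 38.7%. With copies added 11 of 46 families were called, all lower. Fewer members were called without any 1 of the parental or hybrid Ribo-seq libraries, and more without either hybrid RNA-seq library. Calls over all tested genes changed in the same directions. The median of the 68 ran from -0.49 to -0.26 when single libraries were left out.

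By role, 5 of the 14 tunnel genes and 3 of the 4 bridge genes were called lower in occupancy, against 15.0% of all genes. RPL19B counts under both of these roles, so the 2 counts are not separate. Beside the same share, 2 of the 3 genes of the 5S particle and 2 of the 8 genes around the peptidyl transferase centre were called lower. Of the 7 stalk genes edgeR called 0 and 1 had an unadjusted p under 0.05. Among them were RPP0 (-0.36 ± 0.22, adjusted p = 0.226) and RPP1A (-0.56 ± 0.31, adjusted p = 0.187). RPL15B again had the lowest value, with 153 and 162 CPM of footprints in S. cerevisiae and 981 and 878 CPM in S. paradoxus (-2.56 ± 0.23, adjusted p = 3.42e-06). RPL7A followed with 1445 and 1504 CPM against 4680.2 and 4342 (-1.61 ± 0.14, adjusted p = 2.31e-06), and RPL35A with 388 and 377 CPM against 1094 and 1158 (-1.56 ± 0.19, adjusted p = 5.21e-05). In these 3 genes the groups were far apart. RPL23A had -1.13 ± 0.26, adjusted p = 0.00446, a call lost without S. cerevisiae Ribo-seq replicate 1.

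In all, 3 single-copy genes were called lower in occupancy, against 15.0% of all genes. They were RPL29 (-0.91 ± 0.29, adjusted p = 0.0286), RPL3 (-0.46 ± 0.16, adjusted p = 0.0418) and RPL5 (-0.42 ± 0.14, adjusted p = 0.0304). Each of these calls was lost without either S. cerevisiae Ribo-seq library, without S. paradoxus Ribo-seq replicate 1 or without either hybrid Ribo-seq library, that of RPL29 also without S. paradoxus Ribo-seq replicate 2, and that of RPL3 also without either S. cerevisiae RNA-seq library. In a fit of the parental columns alone the adjusted p was 0.0876 for RPL3 and 0.0596 for RPL5. RPL30, lower in mRNA, had 1036 and 1245 CPM of footprints against 1116 and 1114, and the species overlapped (0.03 ± 0.24, adjusted p = 0.936).

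Translation efficiency, the Ribo-seq difference minus the RNA-seq difference on the log2 scale, was not found to differ between the parents for any member. By edgeR 0 of the 68 were called, against 3.47% of all genes, 0 had an unadjusted p under 0.05, and DESeq2 called 0. The median was 0.21 and 54 of the 68 were positive. The median ran from -0.04 to 0.41 when single libraries were left out. The highest value was that of RPP2B (0.81 ± 0.59, adjusted p = 0.53), then RPL30 (0.71 ± 0.34, adjusted p = 0.293).

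In the hybrid, where both alleles share a cell, the mRNA of the median member was split nearly evenly between the alleles. The median difference, S. cerevisiae minus S. paradoxus allele, was 0.03 on the log2 scale, and 6 of 68 genes were called, 1 higher and 5 lower, against 13.0% of all genes, 5.76% higher and 7.19% lower. In both hybrid libraries the S. cerevisiae allele was lower for 23 members, against 38.9% of all genes, and higher for 32, against 37.8%. Of the 11 single-copy genes edgeR called 0 in this fit and 0 had an unadjusted p under 0.05, while 10 of the 11 had a positive value and RPL29 a negative one.

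The 5 genes called lower for the S. cerevisiae allele in this fit were RPL15B, RPL7A, RPL23A, RPL35A and RPL11B. RPL15B had 196 and 152 CPM from the S. cerevisiae allele in libraries 1 and 2 and 729 and 511 CPM from the S. paradoxus allele (-1.83 ± 0.22, adjusted p = 0.000194). RPL7A had 1831 and 1728 CPM against 4230.0 and 3651 (-1.15 ± 0.13, adjusted p = 0.00018). RPL23A had 554 and 425 CPM against 975 and 761 (-0.83 ± 0.25, adjusted p = 0.0477). Within each library the S. cerevisiae allele of all 3 was the lower one. RPL35A differed by -0.79 ± 0.19, adjusted p = 0.0137, and RPL11B by -0.59 ± 0.15, adjusted p = 0.0229.

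RPL8B (chromosome XII, 47859 to 48629, minus strand) was the only gene called higher for the S. cerevisiae allele in this fit, at 3597 and 3764 CPM against 2613 and 2584 (0.50 ± 0.14, adjusted p = 0.0331). Its alleles did not overlap, its partner copy was not analysed here, and between the parents its difference was -0.24. Fewer members were called without either S. cerevisiae RNA-seq library, without hybrid RNA-seq replicate 2 or without either hybrid Ribo-seq library. In the same fits calls over all tested genes fell as well. The calls lost there were those of RPL8B, RPL11B and RPL23A, and the calls of RPL8B and RPL23A were also lost without hybrid RNA-seq replicate 1, that of RPL23A without either S. paradoxus Ribo-seq library, under another library scaling (adjusted p = 0.053) and under a scaling that set ribosomal protein genes aside (adjusted p = 0.0627).

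Both alleles of a hybrid were read from 1 library, and from library to library they deviated together, with a correlation across the 68 genes of 0.855 for RNA-seq and 0.578 for Ribo-seq. A fit of the hybrid columns with a block for the library called 36 of the 68 genes in mRNA, 24 with a higher and 12 with a lower S. cerevisiae allele, against 41.4% of 5129 genes called, 22.3% higher and 19.1% lower. The single-copy genes then split 6 higher to 1 lower. RPL28 (0.43 ± 0.06, adjusted p = 0.000218), RPL10 (0.31 ± 0.05, adjusted p = 0.000519), RPP0 (0.43 ± 0.15, adjusted p = 0.0371), RPL39 (0.31 ± 0.10, adjusted p = 0.0265), RPL32 (0.30 ± 0.08, adjusted p = 0.0105) and RPL30 (0.27 ± 0.06, adjusted p = 0.00603) had the higher S. cerevisiae allele, and RPL29 (-0.41 ± 0.07, adjusted p = 0.00147) the lower one. This fit rests on fewer residual degrees of freedom than the fit over all columns.

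In allelic occupancy 4 genes were called, each of which was also called in allelic mRNA. RPL15B had 197 and 203 CPM of footprints from the S. cerevisiae allele against 856 and 921 CPM (-2.15 ± 0.22, adjusted p = 4.05e-05), RPL7A 2016 and 2071 against 4459.9 and 4648 (-1.16 ± 0.13, adjusted p = 0.000101), and RPL35A 535 and 532 against 1024 and 1075 (-0.98 ± 0.19, adjusted p = 0.00471). RPL8B was higher (0.49 ± 0.14, adjusted p = 0.0453). The 4 calls, 1 higher and 3 lower, stood against 8.74% of all genes, 4.09% higher and 4.65% lower, and the median of the 68 was 0.02. Without either hybrid Ribo-seq library the calls of RPL8B and RPL35A were lost, and calls over all tested genes fell as well. The RPL8B call was also lost without either S. cerevisiae RNA-seq library and, at an adjusted p of 0.0503, under a scaling that set ribosomal protein genes aside. Under the library block 36 were called, 20 higher and 16 lower, against 28.5% of genes, 14.3% in each direction. Allelic translation efficiency gave 0 called members by edgeR, 1 with an unadjusted p under 0.05 and 0 by DESeq2, against 1.38% of all genes. Under the block 2 were called, RPL40B higher (0.65 ± 0.08, adjusted p = 0.00105) and RPL28 lower (-0.38 ± 0.08, adjusted p = 0.0165), against 8.31% of genes.

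Gene by gene, parental and allelic differences followed each other across the family, although the whole family was shifted. Across the 68 genes the parental and the allelic mRNA differences, which come from different libraries, correlated with a Pearson r of 0.86 and a Spearman rho of 0.71. Without RPL15B, RPL7A, RPL23A and RPL35A, the genes farthest out, r was 0.66 over 64 genes, against 0.55 over all tested genes. For occupancy r was 0.95 over the 68 and 0.85 over the 64, against 0.57 over all genes. Genes are not independent replicates, the points share their libraries, and these values describe these strains only.

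**Figure D3:**
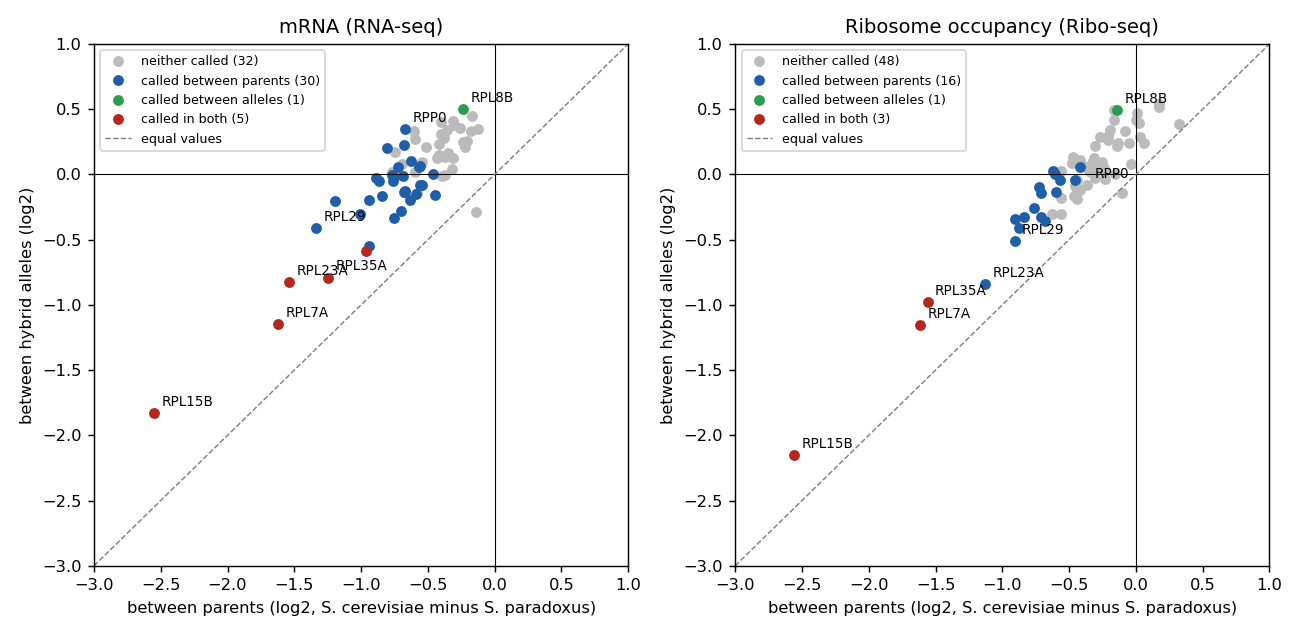
Log2 difference between the parents (x axis) against that between the hybrid alleles (y axis) for the 68 genes, S. cerevisiae minus S. paradoxus, in mRNA (left) and ribosome occupancy (right), coloured by the comparisons in which a gene was called. Most points lie above the dashed line of equal values, around a parental mRNA median of -0.59 and an allelic median of 0.03, and RPL15B, RPL7A, RPL23A and RPL35A are low on both axes.

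The shift itself was tested, without a block for the library that both hybrid alleles share, as the parental minus the allelic difference. For 67 of the 68 genes this was negative in mRNA, with a median of -0.62 against 0.03 for all genes, and RPL9B was the exception (0.15). The single tests called 3 members, all negative, against 12.4% of all genes called and 5.51% called negative. They were RPP0 (-1.01 ± 0.31, adjusted p = 0.0488), RPL3 (-0.78 ± 0.22, adjusted p = 0.0391) and RPL8B (-0.74 ± 0.20, adjusted p = 0.0297). RPP0 had 7455 and 7692 CPM from the S. cerevisiae and 7648 and 4278 CPM from the S. paradoxus allele in hybrid libraries 1 and 2. The S. cerevisiae allele of RPL3 had 7276 and 6928 CPM and the S. paradoxus allele 6884 and 6750.2. For RPP0 the S. paradoxus allele of library 2 stood below the other 3 values, while the 4 values of RPL3 lay close together.

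The count of 3 depended on single libraries, and the value of RPP0 ran from -1.53 without hybrid RNA-seq replicate 1 to -0.63 without replicate 2. The count fell without any S. cerevisiae library, S. paradoxus RNA-seq replicate 1 or either hybrid Ribo-seq library, and so did calls over all tested genes. Both rose without either hybrid RNA-seq library. Without S. paradoxus RNA-seq replicate 2 the members called rose while calls over all genes fell. With the replicate number as a block 8 members were called negative, and by DESeq2 14 were. Over the 5158 tested genes the negative calls were 488 and 506 there, against 284 in the main fit. In occupancy the median was -0.41 and 67 of 68 were negative. There 0 members were called by edgeR, against 6.98% of all genes, and 12 had an unadjusted p under 0.05. DESeq2 called 3, beside 613 of all 5158 genes. Of the chaperones and escorts 6 of 12 were called in the mRNA test, all negative, among them SQT1 (-1.17 ± 0.24, adjusted p = 0.00909) and ARX1 (-1.48 ± 0.31, adjusted p = 0.00954), an export factor at the tunnel exit. Of the regulators STB3 (1.12 ± 0.30, adjusted p = 0.0282) and CRF1, a corepressor that acts through Fhl1 (1.94 ± 0.59, adjusted p = 0.0478), were called, both positive.

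Set against its own parent, without a test, the S. cerevisiae allele stood higher in the hybrid for 67 of 68 genes in mRNA, by a median of 0.45, and for 68 of 68 in occupancy, by 0.46. RPL38 was the exception in mRNA. The S. paradoxus allele was lower in the hybrid than in its parent for 50 of 68 genes in mRNA, by a median of -0.14, and for 32 of 68 in occupancy, where the median was 0.01. As CPM use a scaled column total, these are changes in scaled level and not in the share of counts. For S. cerevisiae the mean share in mRNA was 8.96% in the parent and 10.75% for the allele. In footprints it was 8.64% and 11.06%. For S. paradoxus the means were 11.29% and 10.57% in mRNA and 11.05% and 11.26% in footprints. The matching changes over all genes were not computed, so whether they are particular to the 68 genes cannot be told.

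The split between the copies of a pair was measured as the count of the A copy in percent of both. In S. cerevisiae mRNA 16 of the 22 pairs had an A share between 40% and 60%, and in S. paradoxus 18 did. The replicates of a group differed by a median SD of 1.17 points, with the largest SD, 8.60 points, for RPL18 of the S. paradoxus allele in hybrid RNA-seq. The share is a ratio within 1 library and so does not move with the level of the whole family. It does depend on how reads shared by the copies were assigned.

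In parental mRNA RPL23 had the widest difference in split between the species, while RPL15 had the widest between the alleles in mRNA and in both comparisons of footprints. The A share was 30.8% and 31.8% in the S. cerevisiae replicates, and those of S. paradoxus had 50.3% and 51.4%. In the hybrid it was 31.8% and 33.2% for the S. cerevisiae allele and 50.5% and 53.6% for the S. paradoxus allele. The B copy thus gave most of the S. cerevisiae mRNA in both settings, while the S. paradoxus copies were near parity.

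In RPL15 the A copy led in both species, with 89.5% and 89.5% in the S. cerevisiae parent, 72.3% and 70.8% in the S. paradoxus parent, and 90.9% ± 1.4 against 71.1% ± 2.43 (SD, n = 2) in the hybrid. In footprints the A share was 91.5% ± 0.193 in S. cerevisiae and 67.2% ± 1.75 in S. paradoxus. RPL42, whose protein lies at the tRNA exit site, had 52.4% ± 0.294 against 65.1% ± 0.8 between the parents and 51.6% ± 0.359 against 62.4% ± 0.0371 between the alleles. The species differences in these pairs exceeded the spread between replicates several times.

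Smaller differences were seen in RPL16, at 34.7% ± 1.38 against 44.4% ± 2.28 between the parents and 39.5% ± 3.08 against 46.1% ± 0.21 between the alleles. RPL13 had 48.0% ± 0.233 against 57.5% ± 1.37 and 48.9% ± 0.641 against 57.0% ± 0.711. Over the 22 pairs the difference in A share between the parents and that between the alleles correlated by 0.93 (Pearson) and 0.78 (Spearman). The sign was the same in 16 of the 22 pairs, among them all 9 with a parental difference of at least 5 points.

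**Figure D4:**
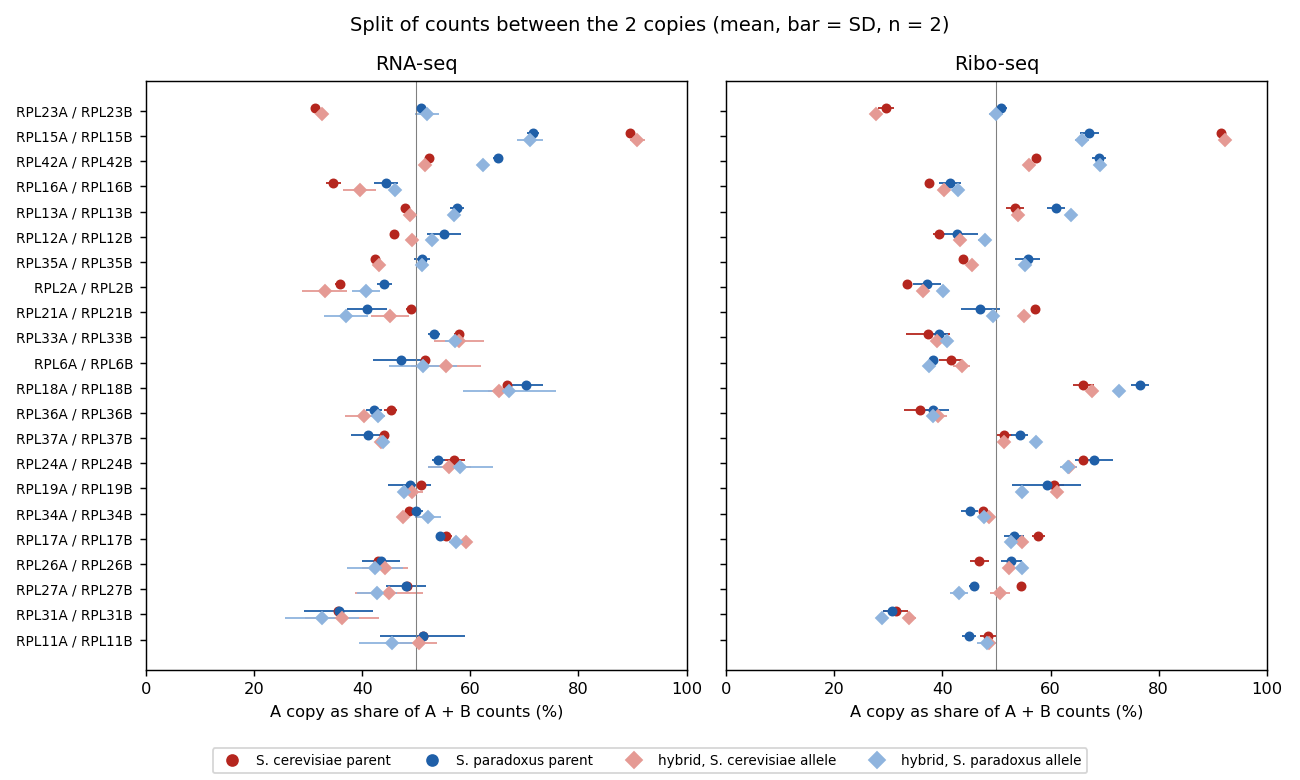
Count of the A copy as a percentage of both copies for the 22 complete pairs, as mean with SD (n = 2), in RNA-seq (left) and Ribo-seq (right), for the parents (circles) and the hybrid alleles (diamonds), with pairs ordered by the parental mRNA difference. RPL23 and RPL15 show the widest gaps between the species, and the alleles (pale) lie next to their parents (dark).

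Footprints and mRNA did not always divide between the copies in the same way. In 10 of the 22 pairs both Ribo-seq libraries lay on the same side of both RNA-seq libraries in all 4 settings (S. cerevisiae, S. paradoxus and each hybrid allele), 7 with a higher and 3 with a lower A share in footprints. These pairs were picked after their values were seen. RPL33 had the widest gap, with 57.9% ± 0.958 of the mRNA but 37.4% ± 4.07 of the footprints on RPL33A in the S. cerevisiae parent, 53.2% ± 1.07 and 39.4% ± 1.68 in S. paradoxus, 57.9% ± 4.59 and 38.9% ± 0.0306 for the S. cerevisiae allele, and 57.1% ± 1.73 and 40.8% ± 0.155 for the S. paradoxus allele. The B copy took most of the footprints in every setting although the A copy took most of the mRNA.

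RPL6A likewise held 51.6% ± 0.747 of the S. cerevisiae mRNA and 41.5% ± 2.09 of the footprints, and 47.1% ± 5.04 and 38.2% ± 0.52 in S. paradoxus. The bridge gene RPL19A moved the other way, from 51.0% ± 0.473 of the mRNA to 60.6% ± 1.92 of the footprints in S. cerevisiae and from 48.8% ± 3.97 to 59.3% ± 6.37 in S. paradoxus. RPL37A moved from 44.1% ± 0.713 to 51.4% ± 1.5 and from 41.2% ± 3.24 to 54.3% ± 1.61.

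Within each strain or allele, the level of translation efficiency, Ribo-seq minus RNA-seq on the log2 scale, had a higher median among the 68 genes than among all genes, for which it was -0.04 in S. cerevisiae, -0.05 in S. paradoxus, -0.06 for the S. cerevisiae allele and -0.08 for the S. paradoxus allele. The 0 of this level is set by the scaling of the column totals. By share of the column total, the 68 genes held a mean of 8.64% of footprints and 8.96% of mRNA in S. cerevisiae. The means were 11.05% and 11.29% in S. paradoxus. They were 11.06% and 10.75% for the S. cerevisiae allele and 11.26% and 10.57% for the S. paradoxus allele. In S. cerevisiae 39 of the 68 genes were called above 0 and 0 below, against 25.5% of all genes called above and 29.3% below, with a median of 0.60. In S. paradoxus 24 were called above and 0 below, against 17.7% and 23.2%, with a median of 0.40. For the S. cerevisiae allele 33 were called above and 0 below, against 21.0% and 27.6%, and for the S. paradoxus allele 34 and 0, against 21.0% and 28.5%, each with a median of 0.67. DESeq2 called 49, 29, 41 and 44 above and likewise 0 below, beside 1531, 1144, 1271 and 1308 of all 5158 genes called above. With copies added 29, 21, 21 and 22 of 46 families were called above. Single libraries moved these counts. Fewer members were called above 0 in S. cerevisiae without either of its RNA-seq libraries or its Ribo-seq replicate 2. The same held in S. paradoxus without its RNA-seq replicate 2, and for the alleles without either hybrid Ribo-seq library. More were called in both parents without either hybrid RNA-seq library, and for both alleles without hybrid RNA-seq replicate 1. Calls above 0 over all tested genes moved in the same direction in each of these fits. Without hybrid RNA-seq replicate 2 fewer members were called for both alleles, while calls above 0 over all genes changed little. Calls of members below 0 appeared in S. paradoxus without its RNA-seq replicate 2 or either hybrid RNA-seq library. They also appeared for both alleles without hybrid RNA-seq replicate 2.

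RPL29 had the highest translation efficiency level of the 68 genes in each of the 4 settings, at 1.81 in S. cerevisiae, 1.38 in S. paradoxus, 1.93 for the S. cerevisiae allele and 2.03 for the S. paradoxus allele, with adjusted p of 0.000261, 0.00252, 0.000214 and 0.000149. Its footprints stood at 1064 and 1092 CPM in S. cerevisiae beside an mRNA of 304 and 312 CPM, and at 1856 and 2191 CPM beside 972 and 586 CPM in S. paradoxus. No footprint value overlapped an mRNA value of the same strain.

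RPL33B came next, at 1.57, 1.25, 1.60 and 1.48, and was called in each setting, as were RPL34B at 1.18, 1.08, 1.29 and 1.44, and the single-copy gene RPL32, at 1.14, 1.05, 0.96 and 1.18. The RPL32 call in S. paradoxus was lost without S. paradoxus RNA-seq replicate 2. Of the stalk genes RPP2A (0.93, 0.84, 0.69 and 0.81) and RPP1B (0.84, 0.66, 0.74 and 0.92) were called in all 4. RPP1A and RPP2B were called in none. In S. cerevisiae and S. paradoxus RPP1A had 0.57 and -0.06, and RPP2B 0.57 and -0.23. Calls of RPP2A or RPP1B were lost in S. cerevisiae without RNA-seq or Ribo-seq replicate 2, in S. paradoxus without RNA-seq replicate 2, Ribo-seq replicate 1 or either hybrid Ribo-seq library, and in the hybrid without RNA-seq replicate 2 or either Ribo-seq library. The RPP1B level in S. paradoxus ran from 0.38 without RNA-seq replicate 2 to 1.01 without RNA-seq replicate 1. RPP0, their scaffold, was called in none (0.46, 0.15, 0.11 and 0.53).

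At the low end stood RPL30, RPL1B and RPL37B, without a call below 0. RPL30 had 0.15 in S. cerevisiae, -0.56 in S. paradoxus, -0.39 for the S. cerevisiae allele and -0.45 for the S. paradoxus allele. Its mRNA stood at 2036 and 1259.9 CPM in S. paradoxus beside footprints of 1116 and 1114 CPM, which was the reverse order of RPL29. RPL1B had 0.00, -0.28, -0.27 and -0.30, and RPL37B was lowest in S. cerevisiae at -0.13. RPL5 was called in both parents (0.54 ± 0.14, adjusted p = 0.00472 and 0.40 ± 0.14, adjusted p = 0.0326), and the S. cerevisiae call was lost without S. cerevisiae RNA-seq replicate 1, that of S. paradoxus without either S. paradoxus RNA-seq library, without S. paradoxus Ribo-seq replicate 1 (0.26), without either hybrid Ribo-seq library and, at an adjusted p of 0.053, in a fit of the parental columns alone.

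**Figure D5:**
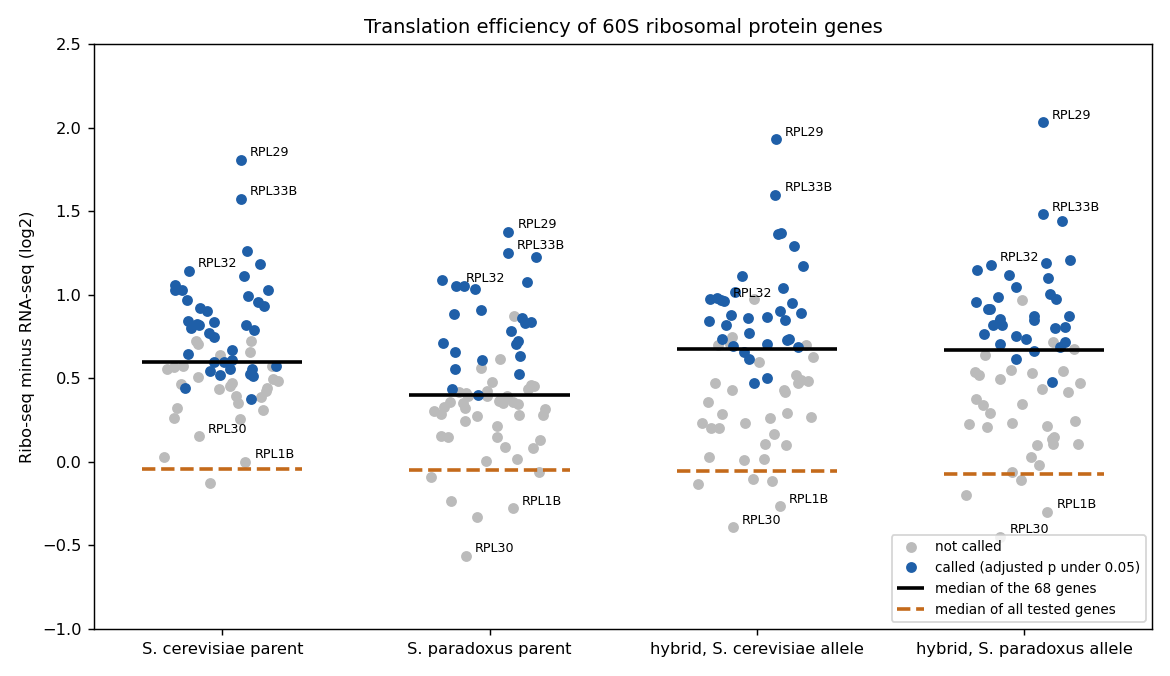
Translation efficiency level (Ribo-seq minus RNA-seq, log2) of the 68 genes in the parents and of each hybrid allele, with called genes in blue, the median of the 68 as a black bar and the median of all tested genes as a dashed orange bar. RPL29 is the highest point in each of the 4 columns, at 1.81, 1.38, 1.93 and 2.03, and no gene is called below 0.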

How the data were processed

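RNA-seq and Ribo-seq counts of 12 libraries in 6 groups of 2 were used. CASAVA 1.8, cutadapt 1.2.1, Bowtie 0.12.8, bedtools 2.17.0 and the build sacCer3 are named in the submitters' processing notes, whereas their settings, the counting rule, the assembly of S. paradoxus and the treatment of reads that match copies or alleles were not given in the sources used here. Per the file headers, each column holds 1 library or 1 allele of a hybrid library, and its deposited values are whole-number counts of reads per gene, with no normalization stated. The coordinate tables deposited by the authors give other values, the start and end of each gene in each species; positions are printed 1-based in R64 (sacCer3), and all 68 members lay at their R64 position. Symbols come from the R64 RefSeq gene table.

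Members were taken by name, and the members and gene lists were chosen with earlier results of these data known. Counts were tested with edgeR 4.0.16 in R 4.3.3 (TMM scaling, a filterByExpr count minimum of 10 that kept 5158 genes, a mean per group and allele over all 16 columns, 8 residual degrees of freedom, the quasi-likelihood test, Benjamini-Hochberg adjustment over all genes at 0.05). Values after a log2 difference are standard errors. CPM use TMM-scaled totals. Depth was 6116133 to 8910405 counts per column. The fit was checked on simulated counts. The replicate numbers of different groups are not stated to mark a shared batch and were not used to pair samples, whereas both alleles of a hybrid come from 1 library, with deviations that correlated by 0.819 over all genes in RNA-seq and 0.452 in Ribo-seq. Alternatives were RLE scaling, TMM without ribosomal protein genes, no filter, DESeq2 1.42.0, replicate blocks, parental columns alone, added copies and the omission of each library. Named genes are the single-copy and stalk genes, the 5 highest and 5 lowest called members of each comparison, the 5 pairs whose A shares differ most, and the 5 highest and 5 lowest levels in S. cerevisiae mRNA; the other genes named by role, pair, list or setting were chosen after their values were seen.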

Additional observations from a re-analysis of the deposited data

Results flagged for a closer look

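In 3 genes the S. cerevisiae minus S. paradoxus difference in mRNA between the parents differed from that between the alleles of the hybrid. The test, which was not run with a block for the library that both hybrid alleles share, was of the difference itself. It was the interaction in edgeR's quasi-likelihood fit over all 5158 genes. Of all these genes it called 12.4% in either direction and 5.51% negative, so such calls were not particular to the ribosomal protein genes. RPP0 differed by -1.01 ± 0.31, adjusted p = 0.0488, as its parental difference was -0.67 and its allelic difference 0.34. RPL3 differed by -0.78 ± 0.22, adjusted p = 0.0391, from a parental -0.72 and an allelic 0.06. RPL8B differed by -0.74 ± 0.20, adjusted p = 0.0297, from a parental -0.24 and an allelic 0.50. Each of the 3 calls was lost without either S. cerevisiae RNA-seq library, without S. paradoxus RNA-seq replicate 1 and without either hybrid Ribo-seq library, and that of RPP0 was also lost without either parental Ribo-seq library of either species, without hybrid RNA-seq replicate 2 and, at an adjusted p of 0.0519, with no filter on low counts. The RPL3 call was also lost without either S. cerevisiae Ribo-seq library and without either hybrid RNA-seq library. The S. paradoxus allele of RPP0 had 7648 and 4278 CPM in the 2 hybrid RNA-seq libraries, and across the fits that left out 1 library the RPP0 value ran from -1.53 to -0.63.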

How the results depend on the processing

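Counts of called members moved by over 1.5 times in 8 cases when a setting other than the set of libraries was changed. With the library as a replicate block in the hybrid columns alone, 36 members were called in allelic RNA, 36 in allelic Ribo and 2 in allelic translation efficiency. The parental minus allelic RNA count of 3 became 6 with RLE scaling, 5 with TMM without ribosomal protein genes, 14 with DESeq2 and 8 with the replicate number as a block in all columns. Over all tested genes that count was 640 in the main fit, then 643, 645, 930 and 1023 in the same order. The parental minus allelic Ribo count of 0 became 3 with DESeq2, while that of all tested genes went from 360 to 613. No named call changed sign, and no median changed sign by more than its spread, the combined replicate SD of the member medians. Medians near 0 could change sign within that spread. For the medians and other counts these settings stayed within the spread or within 1.5 times. The labels do not say that replicate numbers pair the groups. Deviations of same-numbered columns from different libraries correlated by -0.068 to 0.346 over all genes. Over the members alone, S. paradoxus RNA-seq correlated by 0.625 with the S. cerevisiae allele and by 0.593 with the S. paradoxus allele of hybrid RNA-seq. S. cerevisiae Ribo-seq correlated with S. paradoxus Ribo-seq by -0.687 over the members, and the remaining member values ran from -0.305 to 0.338. The block by number moved no other count by over 1.5 times. A library block of the translation efficiency levels was not run, because each library holds 1 assay only.

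Leaving out 1 library at a time gave 13 to 48 called members in parental RNA (median -0.80 to -0.34), 7 to 32 in parental Ribo (median -0.49 to -0.26) and 0 in each case in parental translation efficiency (median -0.04 to 0.41). Allelic counts ran from 3 to 6 in RNA (median 0.03 to 0.09), 2 to 6 in Ribo (median 0.022 to 0.042) and 0 in each case in efficiency (median -0.08 to 0.04). The parental minus allelic test gave 0 to 15 in RNA (median -0.82 to -0.34) and 0 to 6 in Ribo (median -0.53 to -0.31). Efficiency levels gave 21 to 55 in S. cerevisiae (median 0.53 to 0.73), 13 to 37 in S. paradoxus (median 0.19 to 0.72), 20 to 52 for the S. cerevisiae allele (median 0.39 to 0.93) and 20 to 54 for the S. paradoxus allele (median 0.36 to 1.04). A lone library left in a group was taken to vary like the other groups. Precision was limited by the 2 libraries a group and by the untraced assignment of reads between copies and alleles.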

Other observations

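The difference between RNA-seq replicates was related to coding length across the 68 genes. The Pearson correlation of replicate 2 minus replicate 1 (log2) with the log2 of coding length was 0.41 in S. cerevisiae, 0.48 in S. paradoxus, 0.58 for the S. cerevisiae allele and 0.49 for the S. paradoxus allele of the hybrid, against -0.03, -0.32, -0.15 and 0.09 in Ribo-seq. RPL38 differed by -1.63 and -1.80 between the hybrid RNA-seq libraries, in the order of these alleles. Translation efficiency levels correlated with the log2 of coding length by -0.26 in S. cerevisiae, -0.14 in S. paradoxus, -0.46 for the S. cerevisiae allele and -0.44 for the S. paradoxus allele over the same 68 genes. Over all tested genes these values were -0.01, -0.08, -0.04 and -0.05 in the same order. All points of a value share their libraries, and RPL29, with the highest efficiency in each setting, has a coding length of 180 bases.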
